A study of Mus musculus with 12 samples.

Results

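Gene expression was compared between the cerebellum (Cb) and the forebrain and midbrain (F/M) of normal mice. The comparison holds 6 of the 12 libraries of the series, 3 of control cerebellum (Cb-N) and 3 of control forebrain and midbrain (F/M-N), and they were chosen by the genotype and tissue in the sample labels, not by any measured value. The control mice were 4-month-old males, wild-type siblings of *Tpp1*-/- mice bred from heterozygous parents, and they received no treatment. The other 6 libraries, of Cb (Cb-T) and F/M (F/M-T) of *Tpp1*-/- males of the same age, served to ask whether a regional difference depended on genotype, and the levels of some marker genes in them are given beside that test. *Tpp1* encodes the lysosomal protease tripeptidyl peptidase 1, and its loss in this mouse is a model of late infantile neuronal ceroid lipofuscinosis, a childhood neurodegenerative disease. Poly(A)-selected RNA was read from 1 end, and the reads were counted per gene. F/M is a pool of many structures (cortex, hippocampus, striatum, thalamus, hypothalamus and midbrain), so a gene restricted to a small nucleus is diluted in it.

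The cerebellum is built from few kinds of neurons. Granule cells, the most numerous neurons of the brain, are small glutamatergic cells whose parallel fibers excite Purkinje cells. Purkinje cells are large GABAergic neurons and the only output of the cerebellar cortex. Bergmann glia, specialized astrocytes, enclose the Purkinje cell dendrites. The forebrain and midbrain hold instead the glutamatergic projection neurons of the cortex and hippocampus, the GABAergic projection neurons of the striatum, cortical interneurons, thalamic relay cells, hypothalamic peptide neurons and the dopamine neurons of the midbrain. In a tissue sample of this kind, fewer cells of a type and less RNA per cell cannot be told apart.

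The control libraries held 21428379 to 24458189 counted reads each. CPM values below are counts per 1000000 counted reads after TMM scaling of the library sizes, given as mean ± SD of the 3 libraries of a group, and a log2 fold change is Cb-N minus F/M-N with its standard error (SE). A gene was called higher in a region at an FDR (Benjamini-Hochberg adjusted p of the edgeR quasi-likelihood test) below 0.1 together with a difference of 1.5-fold or more. *Tpp1* itself was present in all control libraries, at 109.7, 112 and 110.3 CPM in Cb-N against 92.8, 87.1 and 86.3 CPM in F/M-N, and its regional log2 fold change of 0.32 ± 0.04 was under the 1.5-fold limit (adjusted p = 8.0e-08). In the *Tpp1*-/- mice its mean level was 29.7 CPM in Cb-T and 23.0 CPM in F/M-T. The mitochondrial genes took 3.25% to 3.35% of the counts in Cb-N and 3.66% to 3.76% in F/M-N. The study's methods describe Cb and F/M RNA as taken from the same set of mice of each genotype, but not which Cb library shares a mouse with which F/M library. The tests therefore treat the libraries as separate samples, and the p-values measure the spread between the 3 libraries of each group.

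Marker genes picked for each tissue followed the labels in every control library, while some members of the marker lists below went the other way. *Pcp2*, a Purkinje cell protein, was read at 244, 239 and 246 CPM in Cb-N against 0.171, 0.221 and 0.0833 CPM in F/M-N, with the limit that its exons overlap those of *Pet100* on the other strand over 51.5% of their length. *En2*, a homeobox gene of the midbrain-hindbrain boundary, stood at 128, 132 and 137 CPM in Cb-N against 1.66, 1.59 and 1.54 CPM in F/M-N. On the other side, *Tbr1*, a factor of cortical projection neurons, was counted at 0.870, 0.944 and 0.865 CPM in Cb-N against 112, 109 and 113 CPM in F/M-N, and the dopamine transporter gene *Slc6a3*, a marker of midbrain dopamine neurons, reached 14.97 ± 0.657 CPM in F/M-N against 0.0749 ± 0.130 CPM in Cb-N. No library of one region overlapped a library of the other for any of these genes. The 13 homeobox genes listed for the caudal hindbrain were too low to be tested. The 10 pituitary hormone and factor genes were also too low to be tested, and their summed level was 1.08 to 1.37 CPM in Cb-N against 0.791 to 1.06 CPM in F/M-N.

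Of 52459 annotated symbols, 16725 passed the filter on low counts and were tested. The regions differed in most of them: 13459 genes passed FDR alone, and the libraries of the regions did not overlap for 13083 genes (78.2%). With the fold limit, 3206 genes (19.2%) were higher in Cb-N, 3814 genes (22.8%) were higher in F/M-N and 9705 genes (58%) had no call. The counts given below for each gene list are to be read against these shares of all tested genes. At a limit of 4-fold, 576 genes (3.44%) were higher in Cb-N and 1256 genes (7.51%) were higher in F/M-N. The 4-fold Cb-N genes took 4.67% of all Cb-N counts and 0.543% of F/M-N counts. The 4-fold F/M-N genes took 6.18% of F/M-N counts and 0.722% of Cb-N counts. The median log2 fold change of all tested genes was 0.01. Among tested long noncoding or unclassified genes, 8.53% were at least 4-fold higher in Cb-N and 11.2% in F/M-N, and among protein-coding genes 2.72% and 7.03% were.

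**Figure D1:**
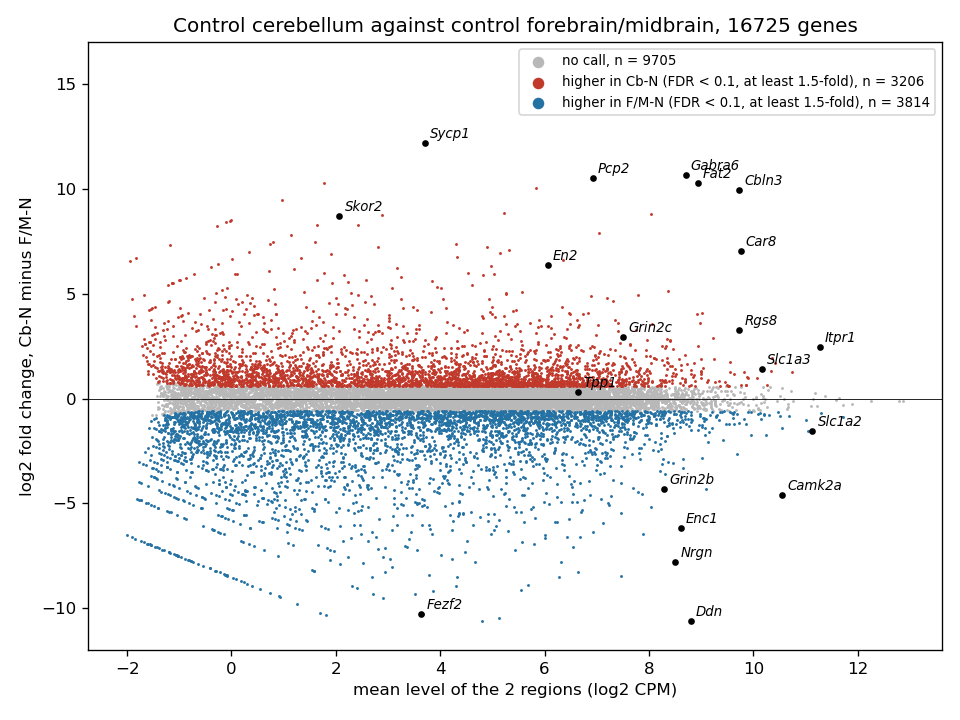
Each point is 1 of the 16725 tested genes, with the mean level of both regions on the x axis (log2 CPM) and the log2 fold change of Cb-N minus F/M-N on the y axis. Red points are higher in Cb-N (3206), blue points are higher in F/M-N (3814) and gray points have no call, and black points are genes named in the text. Genes with very large differences lie at both ends at all levels, from Skor2 and Fezf2 at low levels to Cbln3 and Ddn at high levels, and the streaks at the lower left are genes with 0 or few counts in Cb-N, whose fitted fold change depends on the prior count.

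The genes with the largest differences in favor of the cerebellum included genes known from granule and Purkinje cells. *Gabra6*, the α6 subunit of the GABA-A receptor (GRCm38 chr11:42306437-42321072), was read at 838, 836 and 829 CPM in Cb-N against 0.469, 0.487 and 0.583 CPM in F/M-N. *Cbln3*, a secreted partner of cerebellin 1, was read at 1702, 1706 and 1696 CPM in Cb-N against 1.62, 1.68 and 1.87 CPM in F/M-N. Both genes are products of granule cells, and their log2 fold changes were 10.65 ± 0.06 and 9.94 ± 0.05. *Fat2*, an atypical cadherin of parallel fibers, had 979 ± 61.7 CPM in Cb-N against 0.790 ± 0.276 CPM in F/M-N. *Ppp1r17*, the phosphatase inhibitor known as G-substrate of Purkinje cells, had 261 ± 6.28 and 1.07 ± 0.280 CPM. *Dao*, which encodes the D-serine-degrading enzyme D-amino acid oxidase of cerebellar astrocytes, had 59.0 ± 1.13 and 0.384 ± 0.145 CPM. *Skor2*, a corepressor of Purkinje cells, had 8.38 ± 0.465 CPM in Cb-N and a total of 1 count over the 3 F/M-N libraries, a ratio of 587 (95% interval 105 to 23221). 

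A meiotic gene stood among them. *Sycp1*, which encodes a protein of the synaptonemal complex, was read at 27.4, 25.1 and 25.5 CPM in Cb-N against 0, 0 and 0 CPM in F/M-N. With 3 counts taken as the limit of detection in each F/M-N library, its level was at least 202-fold higher in Cb-N. Among the others with the largest folds were *Crtam*, an immunoglobulin superfamily receptor (113 ± 1.32 against 0.1004 ± 0.0280 CPM), *Nrk*, a Nck-interacting kinase relative (74.2 ± 1.96 against 0.155 ± 0.173 CPM), *Cnpy1*, a Canopy family gene (524 ± 3.69 against 1.17 ± 0.0956 CPM), and *Aqp6*, an aquaporin (39.0 ± 0.827 against 0.228 ± 0.0440 CPM). The plakophilin gene *Pkp3* (13.9 ± 0.515 against 0.0840 ± 0.0833 CPM) and the matrix gene *Ltbp2*, a latent TGF-β binding protein (78.7 ± 4.37 against 0.571 ± 0.0281 CPM), belonged to the same set. *Iltifb*, an interleukin-22-like cytokine gene, had 10.7 ± 0.346 CPM in Cb-N and 2 counts in all in F/M-N, and reads shared with a near-identical copy make its level uncertain. 

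The 4-fold Cb-N genes with the highest CPM, a level not corrected for gene length, included signaling genes of Purkinje and granule cells. *Itpr1*, the IP3 receptor that releases calcium from the endoplasmic reticulum, was read at 4313, 4262 and 4024 CPM in Cb-N against 772, 773 and 703 CPM in F/M-N. *Car8*, a carbonic anhydrase-related protein that binds this receptor, had 1721 ± 1.59 CPM in Cb-N against 12.96 ± 0.732 CPM in F/M-N. The RGS protein gene *Rgs8* had 1541 ± 17.9 and 158 ± 3.99 CPM, and *Calb1*, the calcium buffer calbindin, had 1063 ± 21.1 and 143 ± 5.12 CPM. *Nrep* (928 ± 18.9 against 75.9 ± 2.61 CPM), the Rac GTPase-activating gene *Chn2* (909 ± 4.53 against 55.8 ± 1.80 CPM) and the zinc finger factor *Zic1* (977 ± 18.2 against 57.6 ± 1.43 CPM) belonged to the same set, as did *Cbln3* and *Fat2*. *Itpr1* had a log2 fold change of 2.49 ± 0.03, and that of *Car8* was 7.05 ± 0.04.

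In favor of F/M-N, the genes with the largest differences included cortical and hypothalamic genes. *Ddn*, which encodes the postsynaptic protein dendrin, was read at 0.609, 0.405 and 0.683 CPM in Cb-N against 878, 899.6 and 909 CPM in F/M-N, a log2 fold change of -10.62 ± 0.06. *Kcnv1*, a silent potassium channel subunit, had 93.5 ± 2.81 CPM in F/M-N against 0.164 ± 0.0694 CPM in Cb-N, and *Kcnj4*, an inward rectifier, had 102 ± 4.45 and 0.209 ± 0.115 CPM. The zinc finger gene *Zfp831* had 39.2 ± 1.61 CPM in F/M-N against 0.0741 ± 0.0248 CPM in Cb-N. For 10 further genes the Cb-N libraries held 1 to 3 counts in all. Among them, the ratio of count rates (F/M-N over Cb-N), with an exact interval that covers counting error only, was 1570.1 (95% interval 537 to 7616) for the crystallin *Crym* and 1673 (95% interval 299.9 to 66119) for *Fezf2*, a factor of deep-layer cortical neurons. The hypothalamic peptide genes *Pmch* (melanin-concentrating hormone) and *Trh* (thyrotropin-releasing hormone) had ratios of 765 (95% interval 211 to 6319) and 882 (95% interval 158 to 34859). *Emx2*, a cortical homeobox gene, *Dlx6*, a homeobox gene of GABAergic neurons, *Dlx6os1*, its noncoding neighbor on the opposite strand, and *Ntsr1*, the neurotensin receptor of cortical layer 6, had 9.89, 10.6, 25.3 and 12.98 CPM in F/M-N. *Dlx2*, from the same homeobox family, had 6.52 ± 0.603 CPM in F/M-N and no count in any Cb-N library, at least 48.7-fold lower in Cb-N. Exons of *Pmch* overlap those of *Parpbp* on the other strand over 58.1% of their length, and the strand setting of the counting is not given in the sources used here, so reads of such pairs cannot be told apart. Of the other genes named here, *Homer3*, *Kctd12*, *C1ql3*, *Igf2*, *Slc6a9*, *Gbx2*, *Ptf1a* and *Nefl* overlap a neighbor over 25.4% to 64.5% of their exons.

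Among the 4-fold F/M-N genes with the highest CPM, the first was the α subunit of calcium/calmodulin-dependent kinase II. *Camk2a* was read at 119, 115 and 117 CPM in Cb-N against 2895, 2944 and 2806 CPM in F/M-N. *Camk2n1*, an inhibitor of the same kinase, had 1416 ± 47.8 CPM in F/M-N against 229 ± 6.64 CPM in Cb-N. *Hpcal4*, a neuronal calcium sensor, had 1036 ± 3.71 and 51.3 ± 1.46 CPM. *Nrgn*, the calmodulin-binding protein neurogranin, was read at 3.00, 3.06 and 3.73 CPM in Cb-N against 673, 689 and 807 CPM in F/M-N. The kinase, its inhibitor, the calcium sensor and the calmodulin buffer belong to calcium signaling at the synapse. *Chn1* (907 ± 7.70 against 127 ± 2.56 CPM), the paralog of *Chn2*, went the other way from it. *Agap2* (907 ± 27.2 against 219 ± 4.22 CPM), *Enc1* (773 ± 7.04 against 10.8 ± 0.852 CPM), *Nsg2* (711 ± 17.8 against 96.9 ± 2.47 CPM) and the neuronal chemokine gene *Cx3cl1* (729.6 ± 12.03 against 74.5 ± 2.11 CPM) completed this set with *Ddn*.

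**Figure D2:**
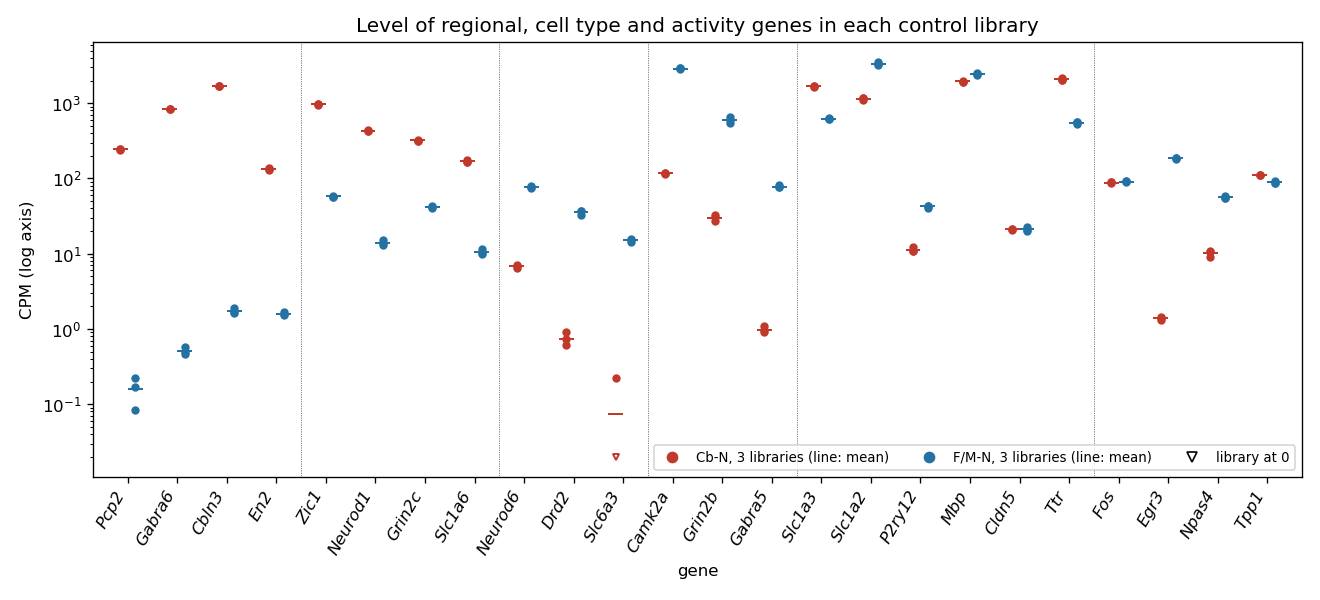
The level of 24 genes in CPM (log axis) is shown for each control library, in red for Cb-N and in blue for F/M-N, with a short line at each group mean and an open triangle for a library at 0; dotted lines part cerebellar markers, other cerebellar genes, forebrain and midbrain markers, forebrain synaptic genes, glial and vascular genes, and activity genes with Tpp1. The libraries of a region lie close together, for Gabra6 at a mean of 834 CPM in Cb-N against 0.513 CPM in F/M-N, while Cldn5 and Fos lie at nearly the same height in both regions.

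Of the 51 lists with tested genes, that of the forebrain and midbrain transcription factors had the median farthest from 0. Of 29 tested factors of the forebrain and midbrain list, 26 were higher in F/M-N, against 22.8% of all tested genes, and 23 of them by at least 4-fold. The median log2 fold change of the list was -6.65, or -6.03 with the genes at 0 counts in Cb-N set to their detection bound. *Tbr1* had 111 ± 2.01 CPM in F/M-N against 0.893 ± 0.0442 CPM in Cb-N. *Bcl11b* (CTIP2), of corticospinal and striatal neurons, had 127 ± 3.22 and 1.27 ± 0.235 CPM, and *Lhx2*, a selector of cortical identity, had 40.1 ± 1.83 and 0.105 ± 0.0703 CPM. *Nkx2-1*, *Lhx8* and *Dlx2*, factors of the ventral forebrain, had no count in any Cb-N library, and were at least 13.97-, 15.7- and 48.7-fold lower there. The members that went the other way were *Otx2* (24.4 ± 0.752 CPM in Cb-N against 6.92 ± 0.256 CPM in F/M-N), which the choroid plexus list also holds, and *Bhlhe22* (61.6 ± 1.79 and 40.4 ± 0.886 CPM). *Nr4a2*, a factor of dopamine and cortical neurons, had no call, at 75.7 ± 1.26 CPM in Cb-N against 63.0 ± 1.07 CPM in F/M-N. 

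Of 34 tested factors of the cerebellum and rhombic lip, 31 were higher in Cb-N, against 19.2% of all tested genes, with a median log2 fold change of 2.90. *Zic1*, a zinc finger factor gene of granule cells, was read at 956, 988 and 987 CPM in Cb-N against 56.7, 56.8 and 59.2 CPM in F/M-N. *Neurod1*, a basic helix-loop-helix factor of granule cells, was read at 423, 429 and 442 CPM in Cb-N against 14.04, 12.96 and 15.1 CPM in F/M-N. *Lhx1*, a LIM homeobox gene of Purkinje cells, had 74.1 ± 2.95 CPM in Cb-N against 2.23 ± 0.345 CPM in F/M-N. *Pax2* (9.18 ± 0.185 against 0.186 ± 0.0534 CPM) and *Tfap2b* (70.0 ± 2.23 against 4.50 ± 0.269 CPM) are factors of the inhibitory interneuron lineage. *Barhl2* (32.2 ± 1.57 against 1.19 ± 0.126 CPM), *Uncx* (16.5 ± 1.65 against 0.414 ± 0.0634 CPM) and *Pax3* (8.81 ± 0.505 against 0.142 ± 0.0620 CPM), patterning genes of the embryo, remained readable in the adult Cb-N. *Lhx9* (1.37 ± 0.101 against 14.2 ± 0.783 CPM), *Gbx2* (0.0300 ± 0.0519 against 2.20 ± 0.277 CPM) and *Pax5* (0.935 ± 0.186 against 1.53 ± 0.147 CPM) were higher in F/M-N, and *Pax5* was under the limit without Cb-N replicate 3 (-0.55). The progenitor gene *Atoh1* had no count in any of the 6 libraries, and *Ptf1a* had none in F/M-N and 0.0592 CPM in Cb-N. 

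Promoter sequence was read for 11965 of the 16725 tested genes from the RefSeq table of GRCm38.p6, as the 250 bases before the first listed start of each gene, and searched on both strands. The E-box CAGATG, a motif bound by factors of the NeuroD and Atoh family, was present in 14.9% of 329 promoters of 4-fold Cb-N genes, in 13.1% of 825 promoters of 4-fold F/M-N genes and in 10.4% of all. The letters TAATTA, a core of many homeodomain sites, were present in 5.78%, 3.52% and 2.42%. AGGTCA, the core element of nuclear receptors such as the RORα of Purkinje cells, was present in 14.3%, 10.5% and 10.5%. The E-box CAGCTG was present in 12.2%, 17.3% and 12.2%. Median GC content differed between these sets as well, at 57.2%, 58.4% and 59.6%, and the part of base composition in these shares was not tested. The promoters of a Purkinje cell gene and of a forebrain gene that both hold CAGATG are shown, with the motif or its reverse complement CATCTG in capitals. The window of *Pcp2* lies at chr8:3625548-3625797, minus strand, and *Nrgn* at chr9:37552746-37552995, minus strand.
Pcp2: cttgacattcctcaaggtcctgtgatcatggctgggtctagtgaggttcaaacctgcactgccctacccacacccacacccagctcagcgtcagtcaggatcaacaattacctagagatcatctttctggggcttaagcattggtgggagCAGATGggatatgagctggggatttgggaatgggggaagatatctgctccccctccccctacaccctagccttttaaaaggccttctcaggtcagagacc
Nrgn: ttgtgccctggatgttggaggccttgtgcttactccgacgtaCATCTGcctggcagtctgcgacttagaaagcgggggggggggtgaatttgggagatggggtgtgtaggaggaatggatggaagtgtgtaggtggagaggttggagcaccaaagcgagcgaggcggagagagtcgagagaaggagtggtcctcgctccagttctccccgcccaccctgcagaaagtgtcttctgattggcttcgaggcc
The same letters stand before genes with opposite regional differences.

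In the granule cell list, 19 of 20 genes were higher in Cb-N (14 of them at least 4-fold), and the median log2 fold change was 3.25. *Grm4*, the presynaptic glutamate receptor mGlu4 of parallel fibers, had 389 ± 11.99 CPM in Cb-N against 40.3 ± 0.526 CPM in F/M-N. *Cbln1*, a cerebellin secreted at parallel fiber synapses, had 639 ± 14.7 and 18.5 ± 0.670 CPM, and the ETS factor *Etv1* had 516 ± 2.03 and 89.1 ± 2.09 CPM. *Chd7*, a chromatin remodeler, had 305 ± 5.70 and 22.8 ± 0.695 CPM. The exception was *Slc17a7*, the vesicular glutamate transporter VGLUT1 that cortical neurons share with granule cells, at 486 ± 5.14 CPM in Cb-N against 1109 ± 21.04 CPM in F/M-N.

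In the Purkinje cell list, 25 of 30 genes were higher in Cb-N (19 at least 4-fold), and the median log2 fold change was 3.22. Genes that serve the release of calcium from stores were among them, for example the phospholipases *Plcb3* (73.2 ± 3.71 against 19.1 ± 0.155 CPM) and *Plcb4* (436 ± 6.78 against 112 ± 4.12 CPM), the scaffold gene *Homer3* (304 ± 4.41 against 12.1 ± 0.528 CPM) and *Itpr1*. The glutamate transporter *Slc1a6* (EAAT4) had 169.9 ± 5.71 CPM in Cb-N against 10.5 ± 0.796 CPM in F/M-N, and *Pvalb*, parvalbumin, had 490.1 ± 13.9 and 41.8 ± 1.06 CPM. *Arhgef33*, a guanine nucleotide exchange factor gene, had 163 ± 3.30 and 1.62 ± 0.601 CPM. Among the listed genes that did not favor the cerebellum, *Foxp2* (14.3 ± 1.21 against 41.6 ± 1.08 CPM) and *Itpka* (40.9 ± 3.54 against 94.8 ± 5.24 CPM) were higher in F/M-N, and *Foxp4* and the GABA synthesis gene *Gad1* had no call. 

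The list of cerebellar interneurons and unipolar brush cells was more divided, with 9 of 15 genes higher in Cb-N and 3 higher in F/M-N (median 1.74). *Slc6a5*, the glycine transporter GlyT2 of Golgi and nuclear neurons, had 47.7 ± 1.46 CPM in Cb-N against 1.11 ± 0.515 CPM in F/M-N. *Eomes*, which marks unipolar brush cells, had 52.2 ± 0.986 and 3.43 ± 0.177 CPM. *Nxph1* (16.6 ± 1.36 against 42.3 ± 2.06 CPM), *Sorcs3* and *Grm2* were higher in F/M-N. 

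By counts of genes, the lists of forebrain neuron types leaned the other way. Of 25 genes of cortical and hippocampal excitatory neurons, 22 were higher in F/M-N (median -3.58). *Neurod6* had 77.2 ± 1.43 CPM in F/M-N against 6.79 ± 0.290 CPM in Cb-N, the factor gene *Mef2c* had 588 ± 17.4 and 49.0 ± 3.03 CPM, and *Lamp5*, a membrane protein of upper cortical layers and interneurons, had 128 ± 2.34 and 1.40 ± 0.292 CPM. The exceptions were *Neurod2* (122 ± 3.22 CPM in Cb-N against 56.7 ± 1.10 CPM in F/M-N) and the pentraxin *Nptx1* (724 ± 0.816 and 391 ± 3.16 CPM), both also known from granule cells. For striatal projection neurons, 23 of 25 genes were higher in F/M-N (median -4.05). *Drd1*, the dopamine receptor of the direct pathway, had 45.5 ± 2.34 CPM in F/M-N against 0.400 ± 0.111 CPM in Cb-N. *Ppp1r1b* (DARPP-32) differed less, with 254 ± 11.2 and 156 ± 5.76 CPM. *Ebf1* alone was higher in Cb-N, at 83.2 ± 2.30 against 8.76 ± 0.388 CPM. 

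Among genes of cortical interneurons, 10 of 15 were higher in F/M-N and 4 in Cb-N (median -2.20), while the summed level of the list was higher in Cb-N, at 1582 to 1636 CPM against 1084 to 1136 CPM in F/M-N. *Lhx6* (17.9 ± 0.538 against 0.271 ± 0.184 CPM), *Sst* (104 ± 13.4 against 2.73 ± 0.462 CPM) and *Vip* (32.1 ± 2.86 against 0.177 ± 0.113 CPM) favored F/M-N. The members higher in Cb-N were *Pvalb*, *Reln*, *Nos1* and *Prox1*, and cerebellar neurons are known to use the first 3 of these. Neuroblast genes followed the F/M-N as well, with 10 of 11 higher there (median -2.89), among them *Dcx*, doublecortin, at 57.9 ± 2.53 against 8.32 ± 0.639 CPM.

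By counts of genes, several lists of smaller structures in F/M also leaned to F/M-N. Of 20 tested hypothalamic genes, 17 were higher in F/M-N, with a median of -4.56, or -3.81 with genes at 0 counts set to their bound. The peptide genes *Avp* (vasopressin) and *Oxt* (oxytocin) had 3.79 ± 1.05 and 3.41 ± 1.38 CPM in F/M-N. *Avp* had no count in Cb-N, at least 28.3-fold lower, and *Oxt* had 0.120 ± 0.0697 CPM. The members higher in Cb-N were the histamine enzyme gene *Hdc* (8.48 ± 0.288 against 3.29 ± 0.453 CPM) and *Gnrh1*, a low gene (1.16 ± 0.268 against 0.612 ± 0.0896 CPM). In the thalamus and habenula list 10 of 16 genes were higher in F/M-N (median -1.34), in the olfactory bulb list 11 of 14 (median -3.25), and in the midbrain monoamine list 6 of 11 (median -1.06). *Tcf7l2*, a thalamic factor, had 44.1 ± 1.74 CPM in F/M-N against 6.33 ± 0.201 CPM in Cb-N. Tyrosine hydroxylase (*Th*) had no call, at 14.7 ± 0.342 and 10.9 ± 0.755 CPM. The tectum and tegmentum list was split, 7 genes to 4 of 12 (median -1.51). Of the hindbrain and cranial motor list 10 genes were tested, 6 higher in F/M-N and 3 in Cb-N (median -2.21). Under other settings the medians of these last lists turned positive: that of the tectum and tegmentum was 1.81 with a mean count of at least 50, and that of the hindbrain was 1.16 without the filter and 0.73 in a fit of all 12 libraries. Summed levels did not follow the counts in all of these lists. They were higher in F/M-N for the hypothalamic list (1072 to 1132 CPM in Cb-N against 1353 to 1399.7 CPM in F/M-N) and the olfactory bulb list (280.5 to 290.03 against 456 to 467 CPM). They were higher in Cb-N for the thalamus and habenula list (1050.2 to 1064 against 649.6 to 659 CPM), the midbrain monoamine list (287 to 303 against 219.98 to 231 CPM), the tectum and tegmentum list (116 to 120.2 against 33.6 to 34.99 CPM) and the hindbrain list (52.6 to 56.4 against 33.1 to 36.8 CPM). With a mean count of at least 50 the medians of the hypothalamic and olfactory bulb lists were -2.77 (10 genes) and -0.89 (9 genes), and that of the midbrain monoamine list was -1.66 (7 genes).

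**Figure D3:**
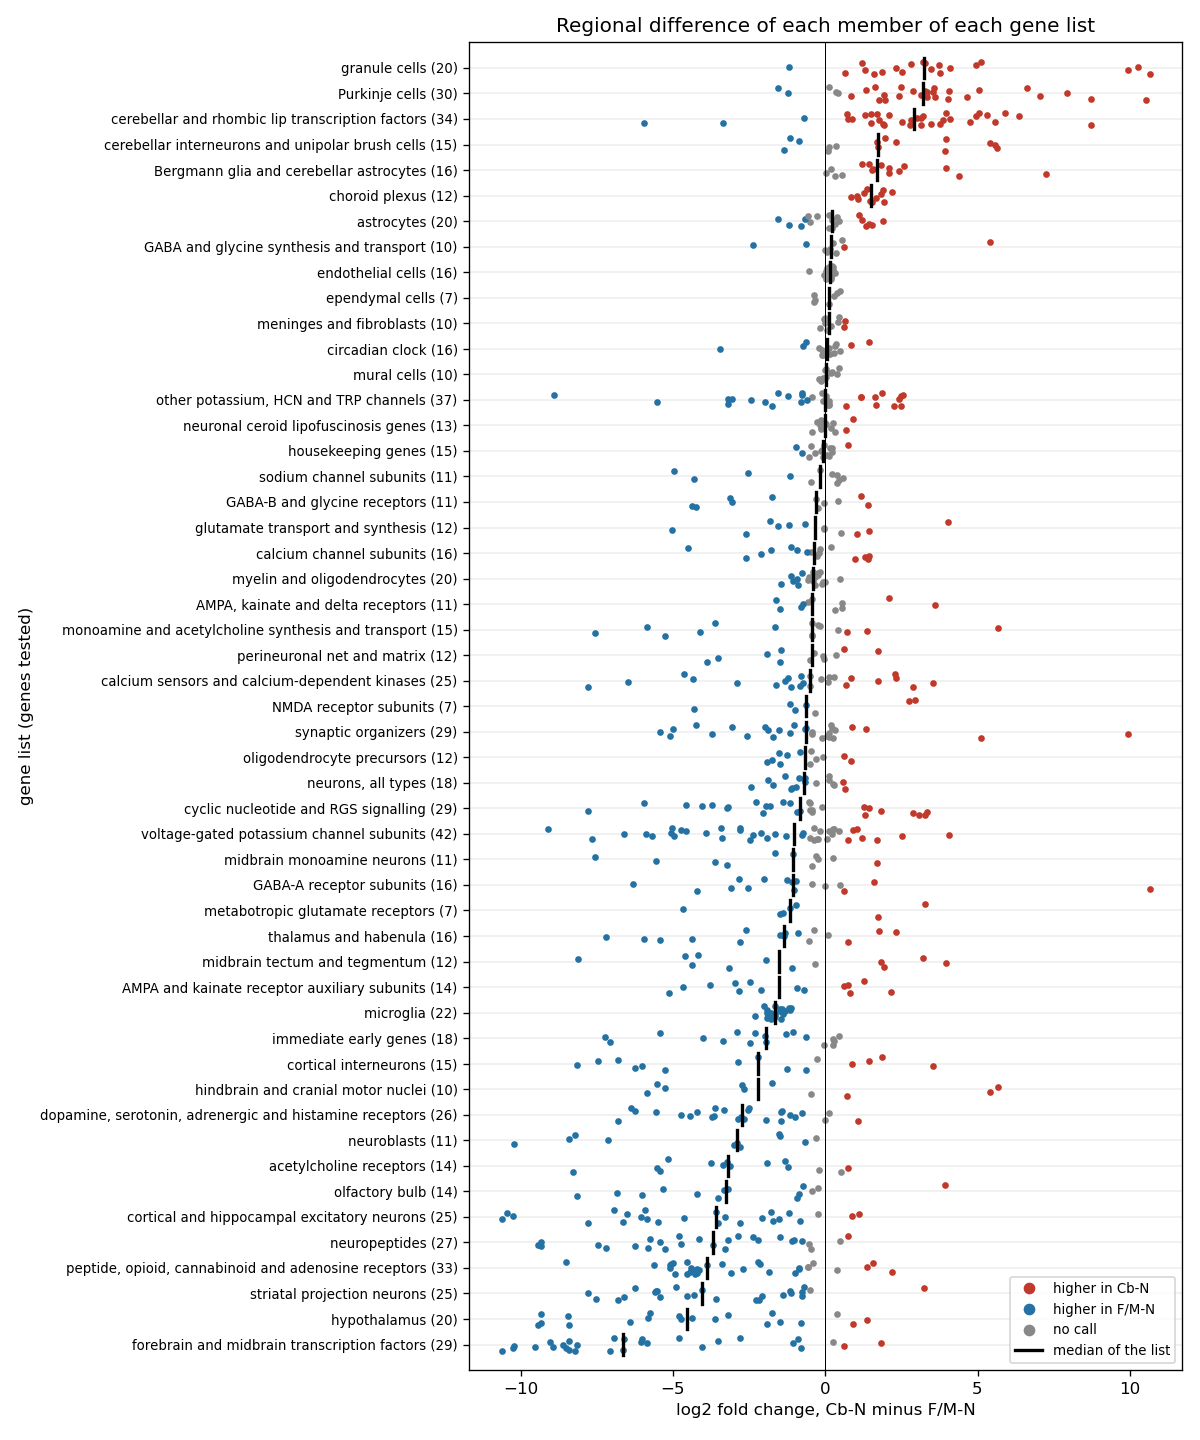
Each point is a tested gene of 1 of 51 gene lists, placed by its log2 fold change (Cb-N minus F/M-N, x axis), in red if higher in Cb-N, blue if higher in F/M-N and gray without a call, with the list's median as a black bar and the number of genes tested in parentheses. The lists are ordered by median, and the order runs from granule cells at 3.25 to the forebrain and midbrain transcription factors at -6.65, and the endothelial, ependymal and mural lists lie within a narrow band around 0.

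General neuronal genes leaned to F/M-N. Of 18 listed genes, 11 were higher in F/M-N and 2 in Cb-N (median -0.68). *Rbfox3* (NeuN), a nuclear protein of most neurons, had 359 ± 6.18 CPM in Cb-N against 228 ± 3.13 CPM in F/M-N. *Uchl1* (84.4 ± 3.37 against 458 ± 16.1 CPM), *Syt1*, the calcium sensor of transmitter release (570.3 ± 13.6 against 1870.1 ± 21.1 CPM), and *Nefl*, a neurofilament subunit (254 ± 7.50 against 547 ± 16.1 CPM), were higher in F/M-N. *Snap25*, a SNARE protein of synaptic vesicles, had no call, at 2765 ± 18.7 and 2546 ± 27.7 CPM.

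RNA of the fast inhibitory receptor came from different subunit genes in each region. *Gabra6* and *Gabrd* (186 ± 5.97 against 61.3 ± 1.69 CPM) were among the 3 of 16 subunit genes higher in Cb-N, and 10 were higher in F/M-N (median -1.06). Their summed level was nonetheless higher in Cb-N, at 2898 to 2919 CPM against 2365 to 2446 CPM. *Gabra5*, the α5 subunit of hippocampal extrasynaptic receptors, was read at 0.957, 1.08 and 0.910 CPM in Cb-N against 81.2, 76.7 and 76.3 CPM in F/M-N. *Gabra3* (20.2 ± 1.32 against 174 ± 2.43 CPM) and *Gabrg3* (2.42 ± 0.167 against 44.7 ± 1.53 CPM) were also higher in F/M-N. Per kilobase of exon, *Gabra6* made up 69.5 ± 0.384% of all α subunit RNA in Cb-N and 0.102 ± 0.0122% in F/M-N. The summed α subunit level was 482 CPM per kb in Cb-N and 202 CPM per kb in F/M-N. 

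Genes for GABA and glycine supply were called at shares near those of all tested genes. Of 10 genes, 2 were higher in Cb-N (*Slc6a5* and the glial glycine transporter *Slc6a9*), 2 were higher in F/M-N (*Gad2* and *Slc6a11*), and 6 had no call (median 0.19). *Gad2* was under the fold limit with scaling by library size alone (-0.56). *Slc6a11*, the glial GABA transporter GAT3, had 72.5 ± 3.63 CPM in Cb-N against 374 ± 8.20 CPM in F/M-N. Of 11 genes of GABA-B and glycine receptors, 5 were higher in F/M-N and 2 in Cb-N (median -0.30). All 4 glycine receptor α genes were on the F/M-N side, for example *Glra2* at 25.2 ± 0.308 against 3.03 ± 0.737 CPM. The GABA-B auxiliary gene *Kctd12* was higher in Cb-N (311 ± 6.56 against 139 ± 1.83 CPM) and *Kctd16* in F/M-N (16.4 ± 2.19 against 0.789 ± 0.351 CPM).

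The GluN2 subunits of the NMDA receptor differed in opposite directions. *Grin2c*, the GluN2C subunit of granule cells and glia, was read at 318, 319 and 329 CPM in Cb-N against 41.3, 40.1 and 42.7 CPM in F/M-N. *Grin2b*, the GluN2B subunit of forebrain neurons, was read at 32.3, 31.1 and 27.3 CPM in Cb-N against 598, 662 and 537 CPM in F/M-N. The log2 fold changes were 2.96 ± 0.03 (adjusted p = 3.5e-24) and -4.31 ± 0.07 (adjusted p = 2.5e-22). Per kilobase of exon, *Grin2c* held 88.7 ± 0.579% of GluN2 RNA in Cb-N and 17.8 ± 1.72% in F/M-N, and *Grin2b* held 1.69 ± 0.163% and 52.0 ± 2.00%. The obligatory subunit *Grin1* had no call, at 399 ± 12.5 and 506 ± 16.6 CPM. In all, 2 of 7 subunit genes were higher in Cb-N and 4 in F/M-N (median -0.62). The other Cb-N gene, *Grin3b*, was low (1.37 ± 0.0569 against 0.203 ± 0.138 CPM) and overlaps *Tmem259* on the other strand.

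Of 11 AMPA, kainate and δ receptor genes, 2 were higher in Cb-N, 4 in F/M-N and 5 had no call (median -0.43), with summed levels of 2789 to 2875 CPM in Cb-N against 2429.9 to 2612 CPM in F/M-N. *Gria4* (669 ± 13.9 against 157 ± 7.13 CPM) was 1 of the Cb-N genes, and *Grid1*, a δ receptor gene, was higher in F/M-N (79.2 ± 2.22 against 25.7 ± 1.32 CPM). *Gria4* held 38.6 ± 0.364% of AMPA subunit RNA per kilobase in Cb-N and 12.2 ± 0.269% in F/M-N. *Gria2*, whose edited subunit makes the channel impermeable to calcium, held 13.99 ± 0.285% and 28.1 ± 0.268%. *Gria2* as such lay just under the fold limit, with a log2 fold change of -0.58 ± 0.03, and passed it without F/M-N replicate 1 (-0.59), F/M-N replicate 3 (-0.61), Cb-N replicate 1 (-0.60) or Cb-N replicate 2 (-0.59). The auxiliary subunits were sorted by region, 5 higher in Cb-N and 9 in F/M-N of 14 (median -1.52). *Cacng2* (stargazin) had 180.0 ± 4.05 CPM in Cb-N against 102 ± 1.15 CPM in F/M-N, while its relatives *Cacng3* (6.71 ± 0.206 against 92.5 ± 4.24 CPM) and *Cacng8* (6.44 ± 0.857 against 45.6 ± 1.63 CPM) favored F/M-N. The kainate receptor partners also parted, *Neto1* with 2.10 ± 0.369 CPM in Cb-N against 74.4 ± 4.71 CPM in F/M-N and *Neto2* with 169.9 ± 2.80 and 101 ± 3.29 CPM.

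Every tested metabotropic glutamate receptor gene was called, 2 of 7 in favor of Cb-N (among them *Grm4*) and 5 in favor of F/M-N (median -1.17), with summed levels of 792 to 821 CPM in Cb-N against 634 to 661 CPM in F/M-N. *Grm5*, a group I receptor gene, was read at 11.8, 11.7 and 12.02 CPM in Cb-N against 297, 311 and 289.7 CPM in F/M-N. Per kilobase of exon, *Grm4* held 51.3 ± 0.936% of mGlu RNA in Cb-N and *Grm5* held 0.913 ± 0.0265%, against 7.13 ± 0.186% and 30.8 ± 0.509% in F/M-N. Of 12 genes of glutamate transport and synthesis, 3 were higher in Cb-N and 6 in F/M-N (median -0.35). The astrocyte transporters divided as *Slc1a3* (GLAST), read at 1678, 1654 and 1677 CPM in Cb-N against 626, 616 and 614 CPM in F/M-N, and *Slc1a2* (GLT-1), read at 1160.4, 1179 and 1098 CPM in Cb-N against 3364, 3511 and 3172 CPM in F/M-N. Per kilobase of exon, *Slc1a3* held 53.3 ± 0.317% of the transporter RNA in Cb-N and *Slc1a2* held 72.9 ± 1.03% in F/M-N. The summed level of this family was close in both, 367 CPM per kb in Cb-N and 349.7 CPM per kb in F/M-N. 

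**Figure D4:**
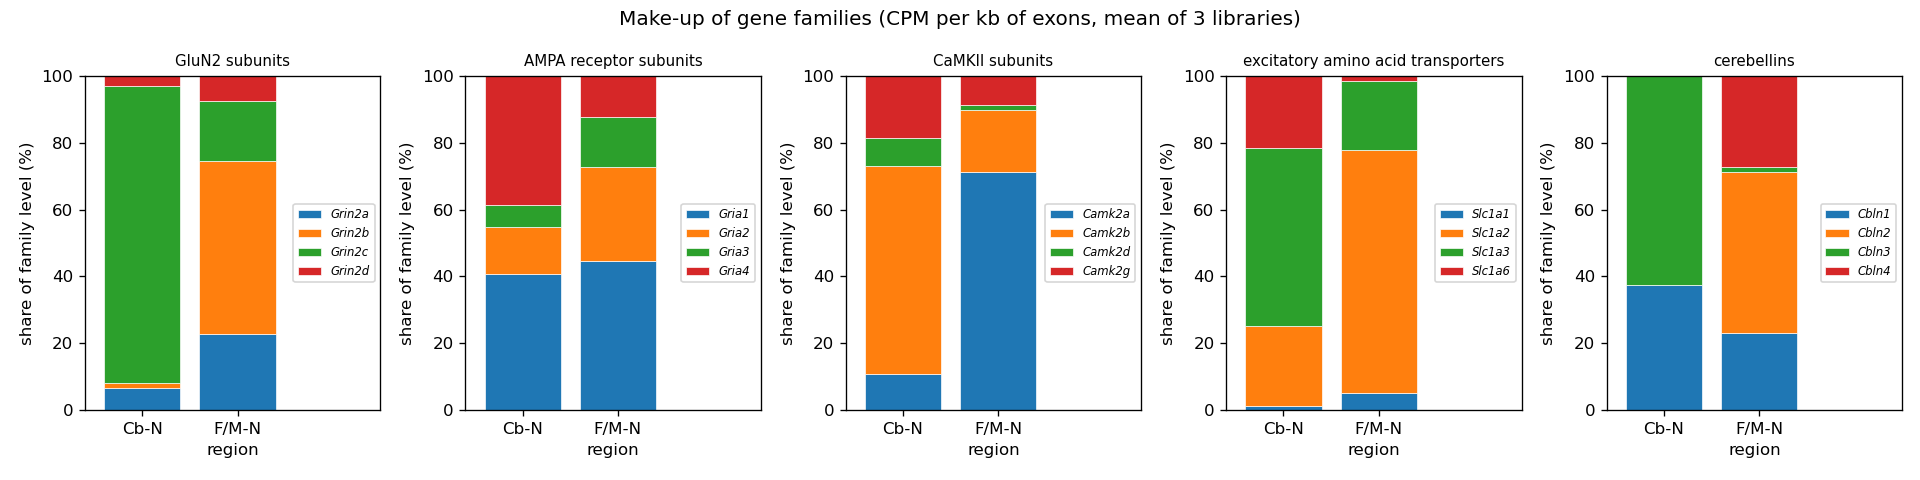
Stacked bars give the share of each gene in the summed level of its family (% of CPM per kb of exon, mean of 3 libraries) in Cb-N and F/M-N for 5 families. The leading gene differs between the regions in 4 of them, for example Grin2c against Grin2b, Camk2b against Camk2a and Slc1a3 against Slc1a2, and is Gria1 in both regions for the AMPA receptor.

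Receptors for slow transmitters were largely on the F/M-N side. Of 26 tested receptor genes for dopamine, serotonin, noradrenaline and histamine, 23 were higher in F/M-N, 1 was higher in Cb-N and 2 had no call (median -2.72). *Htr2c*, a serotonin receptor, had 95.3 ± 2.37 CPM in F/M-N against 24.7 ± 0.977 CPM in Cb-N, and *Htr1b*, a presynaptic receptor, had no call, at 23.0 ± 1.07 and 24.8 ± 0.541 CPM. *Drd2* was read at 0.609, 0.899 and 0.728 CPM in Cb-N against 37.0, 32.3 and 37.4 CPM in F/M-N. For acetylcholine receptors 11 of 14 were higher in F/M-N (median -3.19). *Chrm1*, the M1 muscarinic receptor, was read at 0.653, 0.584 and 0.637 CPM in Cb-N against 197, 199.5 and 197 CPM in F/M-N, and *Chrnb2*, the β2 nicotinic subunit, had no call, at 127 ± 2.87 CPM in Cb-N against 88.9 ± 1.34 CPM in F/M-N. 

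In the list of peptide, opioid, cannabinoid and adenosine receptors 26 of 33 genes were higher in F/M-N and 3 in Cb-N (median -3.89). The Cb-N genes were *Cnr1*, the CB1 receptor of parallel fiber and interneuron terminals (567 ± 1.67 against 217 ± 4.23 CPM), *Crhr1*, the receptor for the corticotropin-releasing factor of climbing fibers (92.5 ± 0.413 against 20.4 ± 0.222 CPM), and *Vipr2* (17.9 ± 0.858 against 6.09 ± 0.370 CPM). *Adora1*, the A1 adenosine receptor, had no call (334 ± 0.640 against 257 ± 4.72 CPM), and *Adora2a*, of striatal neurons, was higher in F/M-N (41.1 ± 2.33 against 1.77 ± 0.270 CPM). The summed level of the list was nonetheless alike in both regions, 1282 to 1289.7 CPM in Cb-N against 1285 to 1308 CPM in F/M-N. 

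Neuropeptide genes showed the same lean, with 23 of 27 higher in F/M-N (median -3.69), and their summed level was 340.3 to 359 CPM in Cb-N against 1152 to 1245 CPM in F/M-N. *Penk*, proenkephalin, was readable in both, at 114 ± 1.90 CPM in Cb-N against 194 ± 5.86 CPM in F/M-N, and *Cck* had 15.8 ± 1.63 and 116 ± 11.2 CPM. *Nxph4* was the single member higher in Cb-N (10.5 ± 1.15 against 6.27 ± 0.356 CPM). Of 15 tested genes for synthesis and transport of monoamines and acetylcholine, 6 were higher in F/M-N and 3 in Cb-N (median -0.43). The acetylcholine-synthesizing enzyme gene *Chat* had 4.24 ± 0.435 CPM in F/M-N against 0.104 ± 0.0231 CPM in Cb-N. The noradrenaline transporter gene *Slc6a2* had 0.996 ± 0.139 CPM in Cb-N and 1 count in all in F/M-N, a ratio of 69.8 (95% interval 12.1 to 2799).

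Ion channel families split within themselves. Voltage-gated potassium channel genes had 7 of 42 members higher in Cb-N and 23 higher in F/M-N (median -1.03). *Kcnc2*, which encodes a Kv3 channel of fast-firing neurons, was read at 8.004, 7.33 and 7.42 CPM in Cb-N against 179.9, 179 and 178 CPM in F/M-N. It held 0.456 ± 0.0288% of Kv3 RNA per kilobase in Cb-N and 26.5 ± 0.195% in F/M-N. *Kcng4*, a modulatory subunit, was higher in Cb-N (201 ± 5.14 against 12.2 ± 1.11 CPM), and its relatives *Kcng1* (0.178 ± 0.0443 against 37.4 ± 1.70 CPM) and *Kcnf1* (1.74 ± 0.622 against 171 ± 2.71 CPM) were higher in F/M-N. The M-current genes *Kcnq3* and *Kcnq5* favored F/M-N, with log2 fold changes of -2.46 ± 0.05 and -5.70 ± 0.07. The A-type channel gene *Kcnd2* was higher in Cb-N (363 ± 1.74 against 157 ± 5.61 CPM), and the A-type channel partners *Kcnip1* and *Kcnip4* were higher in Cb-N while *Kcnip2* was higher in F/M-N (144 ± 4.85 against 2.43 ± 0.226 CPM). 

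Among other potassium, HCN, TRP and calcium-release channels, 11 of 37 genes were higher in Cb-N and 14 in F/M-N (median -0.0017), against 19.2% and 22.8% of all tested genes. Their summed level was 7237 to 7673 CPM in Cb-N against 3256 to 3493 CPM in F/M-N. *Kcnt1* (469.7 ± 18.5 against 152 ± 4.39 CPM), a sodium-activated channel, and *Kcnt2* (0.921 ± 0.118 against 42.6 ± 2.73 CPM), its paralog, parted in opposite directions. *Kcnk10* (80.6 ± 2.65 against 13.8 ± 0.763 CPM) and *Kcnj12* (63.2 ± 0.573 against 13.3 ± 0.524 CPM) were on the Cb-N side, and *Kcnma1*, the BK channel, was level, at 367 ± 16.5 and 368 ± 27.9 CPM. Of 16 calcium channel genes 4 were higher in Cb-N and 7 in F/M-N (median -0.37). The P/Q-type gene *Cacna1a*, mutated in episodic ataxia, had 472 ± 19.6 CPM in Cb-N against 177 ± 6.09 CPM in F/M-N, and the T-type genes were exchanged, *Cacna1g* at 308 ± 6.91 and 124 ± 5.05 CPM and *Cacna1h* at 3.17 ± 0.0752 and 72.2 ± 2.69 CPM. 

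Of 11 sodium channel genes 7 had no call, near the 58% of all tested genes, and 4 were higher in F/M-N (median -0.18). *Scn1a* (309 ± 14.4 against 236 ± 14.2 CPM), *Scn2a* (513 ± 20.6 against 436 ± 16.6 CPM) and *Scn8a* (395 ± 12.5 against 448 ± 21.4 CPM), the main adult α subunits, stayed under the fold limit. *Scn3a*, an α subunit of the young brain, had 3.39 ± 0.252 CPM in Cb-N against 68.0 ± 4.33 CPM in F/M-N, and *Scn3b* had 5.78 ± 0.704 and 179 ± 5.32 CPM.

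Calcium sensors and calcium-dependent kinases differed in both directions. Of 25 genes, 7 were higher in Cb-N and 12 in F/M-N (median -0.52). *Camk2a* held 71.3 ± 0.579% of CaMKII RNA per kilobase in F/M-N and 10.7 ± 0.179% in Cb-N. *Camk2b*, without a call as a gene (829.7 ± 7.81 against 918 ± 6.66 CPM), held 62.2 ± 0.492% in Cb-N. *Camk4*, a nuclear kinase of granule cells, had 1154 ± 42.2 CPM in Cb-N against 348 ± 20.1 CPM in F/M-N. *Hpca*, hippocalcin, had 72.6 ± 0.667 and 541 ± 12.4 CPM, and its relative *Hpcal1* had 222 ± 4.86 and 45.6 ± 0.765 CPM. *Camkv*, a kinase-like protein of spines, had 5.32 ± 0.362 and 471 ± 6.64 CPM.

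In the cyclic nucleotide and RGS list 8 of 29 genes were higher in Cb-N and 15 in F/M-N (median -0.85), with summed levels of 5596 to 5871 CPM in Cb-N against 4622 to 4807 CPM in F/M-N. *Adcy1* (2434 ± 122 against 993 ± 49.6 CPM), a calmodulin-stimulated adenylyl cyclase, was higher in Cb-N, and *Adcy5* (62.6 ± 2.00 against 306 ± 5.01 CPM), the striatal isoform, in F/M-N. The phosphodiesterases differed between paralogs: *Pde5a*, which degrades cGMP, had 129 ± 2.71 CPM in Cb-N against 15.5 ± 1.35 CPM in F/M-N, while *Pde1a* had 4.45 ± 0.664 and 274 ± 7.36 CPM and *Pde1c* had 149.8 ± 5.73 and 20.4 ± 1.98 CPM. The nitric oxide synthase *Nos1* (258 ± 17.4 against 95.4 ± 4.13 CPM) and the cGMP-dependent kinase *Prkg1* (26.1 ± 1.16 against 10.8 ± 1.13 CPM) were also higher in Cb-N, and both subunits of soluble guanylyl cyclase, *Gucy1a3* and *Gucy1b3*, were higher in F/M-N. *Rgs4*, a regulator of G-protein signaling, had 18.8 ± 0.776 CPM in Cb-N against 448 ± 4.69 CPM in F/M-N.

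Among the synaptic organizers, the cerebellins had in sum 561 CPM per kb of exon in Cb-N and 26.2 CPM per kb in F/M-N. *Cbln3* held 62.4 ± 0.592% and *Cbln1* held 37.5 ± 0.601% in Cb-N, whereas *Cbln2* held 48.1 ± 1.37% and *Cbln4* held 27.4 ± 1.35% in F/M-N. Over the whole list 4 of 29 genes were higher in Cb-N, 15 in F/M-N and 10 had no call (median -0.63), with summed levels of 5708 to 5758 CPM in Cb-N against 4206 to 4246 CPM in F/M-N. The neurexins *Nrxn2* and *Nrxn3*, presynaptic partners of the cerebellins, had no call. *Lrrtm1* (4.71 ± 0.259 against 62.5 ± 1.87 CPM) and *C1ql3* (8.59 ± 1.08 against 71.4 ± 1.86 CPM), postsynaptic and secreted organizers, were higher in F/M-N. In the list of perineuronal net and matrix genes, 5 of 12 were higher in F/M-N and 2 in Cb-N (median -0.44). *Ncan*, neurocan, had 22.6 ± 0.541 and 261 ± 8.41 CPM, and *Hapln4*, a link protein, had 129 ± 4.03 and 101 ± 3.35 CPM and no call.

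Glial genes showed a different pattern for each cell type. Bergmann glia genes were higher in Cb-N in 12 of 16 cases and in F/M-N in 0 (median 1.69). *Gdf10*, a TGF-β family ligand of Bergmann glia, was read at 151, 151 and 157 CPM in Cb-N against 6.91, 7.17 and 7.83 CPM in F/M-N. *A2m* (131 ± 2.28 against 8.41 ± 1.03 CPM) and *Timp4* (154 ± 2.94 against 25.8 ± 0.489 CPM) followed, and *Ptch1*, the Hedgehog receptor and target (291 ± 9.11 against 101 ± 3.00 CPM), and *Gli1* (17.5 ± 1.33 against 4.93 ± 0.341 CPM) are targets of the Sonic hedgehog signal that Purkinje cells are known to send. *Kcnj10*, a potassium channel of all astrocytes, had no call (279 ± 2.87 against 274 ± 2.98 CPM). Genes of astrocytes in general were divided, 6 higher in Cb-N, 4 in F/M-N and 10 of 20 without a call (median 0.21). *Aldh1l1* (72.0 ± 1.28 against 65.4 ± 3.49 CPM) and *Gja1* (283 ± 1.40 against 258 ± 5.24 CPM), pan-astrocyte genes, did not pass the fold limit. *Aqp4*, the water channel of astrocyte endfeet, was higher in Cb-N (519 ± 4.71 against 179 ± 3.16 CPM), as was *S100b* (445 ± 12.8 against 119 ± 5.25 CPM). *Gfap* had 150.0 ± 1.92 and 182 ± 2.60 CPM and no call.

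Microglial genes were lower in the cerebellum without exception. All 22 of 22 were higher in F/M-N, against 22.8% of all tested genes, with log2 fold changes from -2.30 for *Fcrls* to -1.13 for *Olfml3* (median -1.65), and their summed level was 246 to 258 CPM in Cb-N against 703 to 729 CPM in F/M-N. *P2ry12*, the ADP receptor of homeostatic microglia, was read at 10.96, 10.7 and 12.2 CPM in Cb-N against 40.7, 43.3 and 43.4 CPM in F/M-N. *Csf1r*, the growth factor receptor on which microglia depend, was read at 38.2, 35.8 and 40.3 CPM in Cb-N against 108, 104 and 108 CPM in F/M-N. Every Cb-N library was below every F/M-N library for both genes. *Tmem119* (5.84 ± 0.737 against 23.5 ± 1.06 CPM) and *Cx3cr1*, the receptor for the product of *Cx3cl1* (14.4 ± 1.07 against 49.6 ± 2.82 CPM), gave the same picture. 

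No gene of the mature oligodendrocyte list was higher in Cb-N. Of 20 genes, 14 had no call and 6 were higher in F/M-N (median -0.40). *Mbp* (1942 ± 21.98 against 2455 ± 47.4 CPM), which encodes myelin basic protein, stayed under the limit, and the lineage factors *Olig1* (37.1 ± 3.59 against 80.8 ± 6.30 CPM) and *Olig2* (10.6 ± 0.591 against 22.2 ± 1.42 CPM) passed it. Of the precursor genes, 6 of 12 were higher in F/M-N and 2 in Cb-N (median -0.67). The defining receptor *Pdgfra* had 25.5 ± 1.54 CPM in Cb-N against 71.6 ± 2.90 CPM in F/M-N, while *Ptprz1* (603 ± 18.3 against 339 ± 8.82 CPM) and *Vcan*, which astrocytes and Bergmann glia also use, were higher in Cb-N.

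No vascular gene was called. None of 16 endothelial genes and none of 10 mural genes was called (medians 0.16 and 0.02), and *Cldn5*, a tight junction protein of brain endothelium, had 21.3 ± 0.353 and 20.97 ± 1.26 CPM. None of 7 tested ependymal genes was called (median 0.11). Of 10 meningeal genes 2 were higher in Cb-N (median 0.11), *Igf2* (145 ± 2.92 against 94.0 ± 4.24 CPM) and *Lum*, whose log2 fold change of 0.64 was under the limit without F/M-N replicate 2 (0.56), Cb-N replicate 1 (0.51) or Cb-N replicate 3 (0.53). All 12 of 12 choroid plexus genes were higher in Cb-N (median 1.49), with a summed level of 3525 to 3704 CPM in Cb-N against 1222 to 1272 CPM in F/M-N. *Ttr*, transthyretin, the main product of that epithelium, was read at 2029, 2013 and 2158 CPM in Cb-N against 560.0, 522 and 555 CPM in F/M-N. *Folr1* (15.95 ± 0.9501 against 5.07 ± 0.404 CPM) and *Kcne2* (17.8 ± 0.329 against 4.81 ± 0.819 CPM) were readable in both regions as well. How much of the plexus of each ventricle was taken with each tissue is not given in the sources used here, and its part in these values was not tested.

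Immediate early genes, which neurons switch on within minutes of activity, mostly leaned to F/M-N. Of 18 genes 13 were higher in F/M-N, 0 in Cb-N and 5 had no call (median -1.96). *Egr3*, a zinc finger factor, was read at 1.44, 1.30 and 1.41 CPM in Cb-N against 184, 185 and 189 CPM in F/M-N. *Arc*, a regulator of AMPA receptor traffic, was read at 19.5, 21.9 and 20.5 CPM in Cb-N against 335, 330.0 and 333 CPM in F/M-N, and *Npas4*, a factor induced by calcium entry, was read at 10.96, 10.7 and 8.92 CPM in Cb-N against 54.9, 58.1 and 55.1 CPM in F/M-N. *Junb* was read at 6.83, 8.95 and 9.29 CPM in Cb-N against 71.9, 80.4 and 102 CPM in F/M-N. Against this, *Fos*, the most used activity marker, was read at 88.3, 87.0 and 88.8 CPM in Cb-N against 89.7, 91.3 and 91.2 CPM in F/M-N, and its log2 fold change of -0.04 ± 0.03 did not pass (adjusted p = 0.24). *Nr4a3* (91.9 ± 2.40 against 76.6 ± 1.04 CPM), *Nr4a2*, *Ier2* (14.2 ± 0.878 against 10.3 ± 0.685 CPM) and *Dusp1* (67.2 ± 2.41 against 55.0 ± 2.14 CPM) had no call either. 

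Sequence before the start site was found for 13 of the 18 immediate early genes, and it was searched for the cyclic AMP response element, TGACGTCA, and its core TGACGT, which CREB binds. The core was present in 9.69% of all 11965 promoters and the full element in 2.67%. Of 9 promoters of genes higher in F/M-N, 4 held the core, and of 4 promoters of genes without a call, 3 did. A pair from each set is shown to place the element beside the values above, with the core in capitals on either strand (TGACGT or its complement ACGTCA). *Npas4* lies at chr19:4989972-4990221, minus strand, *Egr4* (5.50 ± 0.338 CPM in Cb-N against 27.1 ± 5.16 CPM in F/M-N) at chr6:85513590-85513839, minus strand, *Fos* at chr12:85473640-85473889, plus strand and *Nr4a3* at chr4:48045055-48045304, plus strand.
Npas4: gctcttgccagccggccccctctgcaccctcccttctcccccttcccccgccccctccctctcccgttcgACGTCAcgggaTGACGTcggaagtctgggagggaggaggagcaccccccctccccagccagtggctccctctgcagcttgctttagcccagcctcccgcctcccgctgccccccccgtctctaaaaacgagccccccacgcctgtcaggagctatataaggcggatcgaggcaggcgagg
Egr4: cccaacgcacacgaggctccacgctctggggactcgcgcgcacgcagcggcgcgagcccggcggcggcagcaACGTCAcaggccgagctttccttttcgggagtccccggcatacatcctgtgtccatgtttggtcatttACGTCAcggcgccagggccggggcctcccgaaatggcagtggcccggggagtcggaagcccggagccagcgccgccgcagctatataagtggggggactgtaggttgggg
Fos: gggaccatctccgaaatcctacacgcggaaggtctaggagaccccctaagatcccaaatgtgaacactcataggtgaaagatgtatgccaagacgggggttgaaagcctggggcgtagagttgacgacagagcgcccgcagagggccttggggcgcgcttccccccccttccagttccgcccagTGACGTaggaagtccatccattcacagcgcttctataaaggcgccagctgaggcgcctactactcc
Nr4a3: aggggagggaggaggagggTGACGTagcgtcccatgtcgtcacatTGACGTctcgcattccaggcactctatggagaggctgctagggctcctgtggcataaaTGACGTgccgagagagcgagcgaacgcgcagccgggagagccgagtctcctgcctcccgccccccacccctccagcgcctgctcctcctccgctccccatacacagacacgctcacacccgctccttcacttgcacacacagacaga
The core stands before genes with and without a regional difference.

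Clock genes were called at shares near those of all tested genes. Of 16 genes 11 had no call, 2 were higher in Cb-N and 3 in F/M-N (median 0.06). *Per1* (134 ± 3.57 against 144 ± 1.504 CPM), *Arntl* and *Dbp* (68.7 ± 1.85 against 73.5 ± 5.02 CPM), whose levels swing over the day, did not pass the limit. *Npas2*, the partner of BMAL1 in the forebrain, had 4.09 ± 0.479 CPM in Cb-N against 45.5 ± 1.72 CPM in F/M-N, while its paralog *Clock* had 188 ± 10.02 and 146 ± 3.44 CPM and no call. *Cry1* was higher in Cb-N (55.9 ± 2.40 against 20.5 ± 1.61 CPM). Of 13 genes of the neuronal ceroid lipofuscinoses, 11 had no call and 2 were higher in Cb-N (median -0.02), among them the protease gene *Ctsf* (90.4 ± 3.83 against 56.0 ± 1.65 CPM). Of 15 housekeeping genes 12 had no call, *Tbp* was higher in Cb-N and *Ywhaz* and *Eef1a1* were higher in F/M-N (median -0.07). *Gapdh* was counted at only 10.3 ± 0.294 and 8.88 ± 0.448 CPM, and levels of such genes with many near-identical copies are uncertain because the treatment of reads with several alignments is not given in the sources used here.

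Most of the large regional differences had the same direction in *Tpp1*-/- mice, and the size of some differed by the test of the interaction. Of the 1832 genes at least 4-fold different between the control regions, 1823 differed in the same direction between Cb-T and F/M-T, and 1283 did so by at least 4-fold. The interaction of region and genotype passed (FDR below 0.1, with a 2-fold or larger difference of folds) for 761 of 17482 genes (4.35%). Of the 1832 genes, 486 passed, 481 with a larger difference in the control mice and 5 with a larger one in *Tpp1*-/- mice. The 1832 genes were chosen for large differences in the same control libraries, which favors both this share and this split, and neither is read as a result. *Nrgn* had a log2 fold change of -7.79 in controls and -4.20 in *Tpp1*-/- mice, where Cb-T held 44.7, 39.4 and 36.7 CPM. *Gabra6* had 10.65 and 10.55, and *Fezf2* had -10.26 and -10.09, and neither passed the interaction.

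Some regional markers had other levels in the *Tpp1*-/- than in the control libraries, which touches the comparison of the genotypes. Of the 23 genes of the hindbrain and cranial motor list, 21 were higher in every Cb-T library than in every Cb-N library (17 of 19 among those past the filter on low counts, against 27.3% of all 17482 genes), with summed levels of 94.6 to 97.2 CPM in Cb-T against 53.7 to 57.5 CPM in Cb-N. *Hoxb5*, at 0 in all Cb-N and F/M libraries, was read at 3.21, 2.34 and 2.07 CPM in Cb-T. The noradrenaline enzyme gene *Dbh* was read at 7.72, 7.86 and 8.42 CPM in Cb-T against 0.533, 0.688 and 0.743 CPM in Cb-N, on the scale of all 12 libraries. *Tcf7l2* was read at 39.7, 35.7 and 34.8 CPM in Cb-T against 6.30, 6.38 and 6.68 CPM in Cb-N, and *Slc17a6*, the vesicular glutamate transporter VGLUT2, at 103, 101 and 103 CPM and 20.95, 20.1 and 22.5 CPM. Of the 25 genes of cortical and hippocampal excitatory neurons, 13 were higher and 8 were lower in every Cb-T than in every Cb-N library (27.3% and 27.7% of all genes), and their summed level was 1873 to 1955 CPM in Cb-T against 2062 to 2084 CPM in Cb-N. In F/M, the serotonin transporter gene *Slc6a4* was read at 6.75, 6.09 and 6.17 CPM in F/M-T against 0.130, 0.0901 and 0.212 CPM in F/M-N. Of the microglial genes 22 of 22 were higher in every Cb-T library than in every Cb-N library (27.3% of all genes), with summed levels of 891 to 900.2 CPM and 251 to 263 CPM. The part of these markers in the interaction was not tested, and the comparison of the control regions does not use these libraries.

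**Figure D5:**
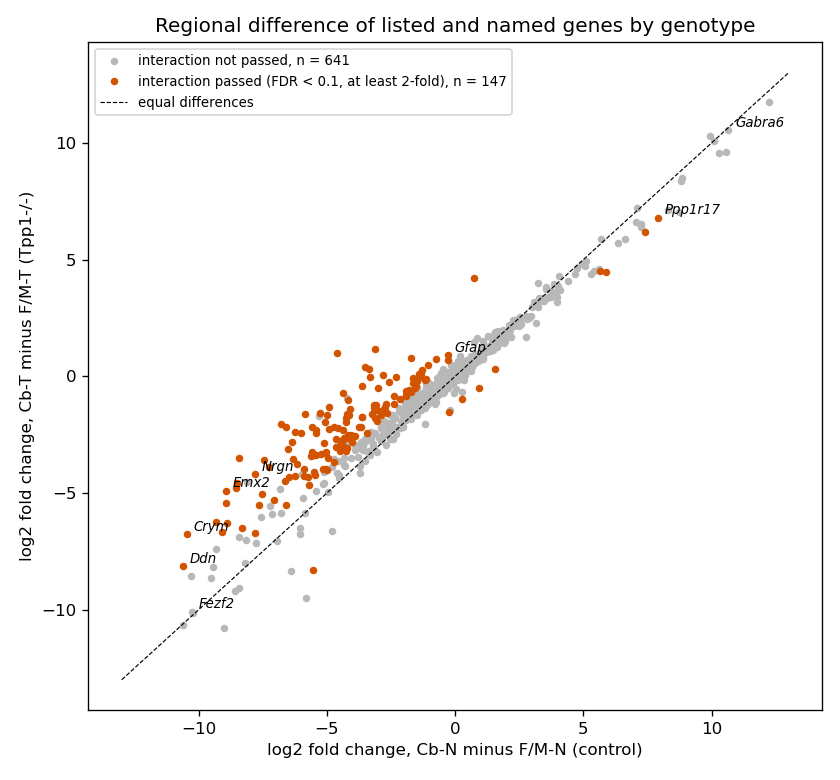
Each of 788 listed or named genes is placed by its log2 fold change between the regions in control mice (x axis, Cb-N minus F/M-N) and in Tpp1-/- mice (y axis, Cb-T minus F/M-T), in orange where the interaction passed (147 genes) and in gray where it did not, and the dashed line marks equal differences. Most points lie near the line, and the orange points lie mostly on the F/M side and above it, where the difference was smaller in Tpp1-/- mice. Of all 17482 genes 4.35% passed. Genes chosen for large differences in the same control libraries are among those plotted, which favors both the share that passed and this split, and neither is read as a result.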

How the data were processed

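Poly(A) RNA libraries of 6 control and 6 *Tpp1*-/- tissue samples were prepared with a strand-marking mRNA kit and read over 50 bases from 1 end. Alignment to GRCm38 used STAR (2.5.1b in the submitters' processing notes), and the authors deposited raw read counts per gene symbol, made with featureCounts of the Rsubread package (1.26.1). The annotation release, the strand setting and the treatment of reads with several alignments are not given in the sources used here.

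The deposited counts were analysed in R 4.3.3 with edgeR 4.0.16. Genes were kept by filterByExpr (minimum count 10, minimum total 15), scaled by TMM and tested by the quasi-likelihood test on the 3 Cb-N and 3 F/M-N libraries. Calls needed an FDR below 0.1 (Benjamini-Hochberg) and a fold change of 1.5, 4 for the stricter set, and 2 for the interaction of region and genotype, which was fitted on all 12 libraries. Fitted folds of edgeR used its default prior count. A prior count of 2 served only log2 CPM values in checks of the libraries and of the list medians. A gene at 0 in all libraries of a region was given a bound at 3 counts per library (0.125 to 0.137 CPM), and a gene with 1 to 3 counts there an exact 95% interval. Bounds and intervals cover counting error only. Levels per kilobase and coordinates used GENCODE M21 (GRCm38), and promoters used the RefSeq table of GRCm38.p6.

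The text names *Tpp1*, in each direction the 15 called genes with the largest fold (at least 5 CPM in the higher region, libraries not overlapping, clone-named genes left out), in each direction the 10 genes with the highest CPM among the 4-fold calls, and members of 52 gene lists, including those against the direction of their list. Some genes that meet these rules are not reported here. The comparison, the lists and their members were chosen with earlier results of these data known. Replicate libraries differed beyond sampling noise, with chi-square per degree of freedom of 1.28 to 3.59. The test was tried on simulated counts. Alternatives used DESeq2 1.42.0, limma-voom (limma 3.58.1), other scaling, filters and limits, and each library left out in turn.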

Additional observations from a re-analysis of the deposited data

Results flagged for a closer look

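For 52 of the 250 genes named above that were tested the regional difference itself differed between control and *Tpp1*-/- mice by the test of the interaction in edgeR (FDR below 0.1 and at least 2-fold, Benjamini-Hochberg over 17482 genes, of which 4.35% passed). The values are the regional log2 fold change of the controls minus that of the *Tpp1*-/- mice, so a negative value for a gene higher in F/M-N is a smaller difference in *Tpp1*-/- mice. That reading does not cover *Dbh*, which was higher in Cb-N and had a larger difference in *Tpp1*-/- mice. Nor does it cover *Gfap*, which had no call in controls and was higher in Cb-T than in F/M-T. In 46 genes the value was negative and in 6 it was positive. Many of the named genes were chosen for large differences in the same control libraries, which favors both the share that passed and this split.

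Among genes of the cortex, hippocampus and striatum, it was -3.58 for *Nrgn*, -2.47 for *Ddn*, -3.69 for *Crym*, -3.41 for *Lamp5*, -2.14 for *Bcl11b*, -2.15 for *Camkv*, -2.38 for *Enc1*, -1.80 for *Chrm1*, -3.41 for *Drd2* and -3.50 for *Zfp831*. Transcription factor genes had -4.03 for *Emx2*, -3.96 for *Lhx2*, -3.69 for *Lhx9*, -2.84 for *Tcf7l2* and 1.42 for *Pax3*. Peptide and peptide receptor genes had -1.92 for *Sst*, -3.84 for *Vip*, -3.10 for *Trh*, -3.74 for *Ntsr1* and 1.40 for *Gnrh1*. For genes of transmitter synthesis and transport it was -3.70 for *Chat*, -3.48 for *Dbh*, -2.33 for *Slc17a6*, -1.53 for *Slc6a11* and 2.87 for *Slc6a4*, the last of which was too low in the control libraries to be tested between the regions. Receptor genes for GABA, glycine and glutamate had -2.75 for *Gabra5*, -1.13 for *Gabrg3*, -1.38 for *Kctd16*, -1.15 for *Glra2*, -1.62 for *Grm5* and -1.18 for *Neto1*. Of the genes in this paragraph, *Crym*, *Emx2*, *Trh* and *Ntsr1* held only 1 to 3 counts in all in Cb-N, so the size of their values is uncertain.

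Channel genes were the largest set, and all had negative values: -1.29 for *Cacna1h*, -2.36 for *Kcnc2*, -1.11 for *Kcnf1*, -2.15 for *Kcng1*, -1.91 for *Kcnip2*, -2.63 for *Kcnj4*, -1.04 for *Kcnq5*, -1.41 for *Kcnt2*, -2.42 for *Kcnv1*, -1.69 for *Scn3a* and -1.45 for *Scn3b*. The cerebellin genes *Cbln2* and *Cbln4* had -3.34 and -2.27. The activity genes had -1.18 for *Arc*, -1.75 for *Egr3* and 1.23 for *Nr4a3*. Glial genes had -1.20 for *Cx3cr1*, -2.28 for *Fcrls* and -1.17 for *Gfap*. *Gfap* stood at 1143, 1146 and 1138 CPM in the Cb-T libraries, 155, 152 and 152 CPM in Cb-N, 614, 604 and 621 CPM in F/M-T and 184, 184 and 188 CPM in F/M-N. The cerebellar genes *Ppp1r17* and *Aqp6*, with 1.13 and 1.22, had a larger regional difference in the control mice. Genes of the hindbrain list were higher in the Cb-T than in the Cb-N libraries, as given above, and their part in these values was not tested. Groups of 3 libraries are too small for a test of outlying libraries.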

How the results depend on the processing

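The counts of 3206 Cb-N and 3814 F/M-N genes stayed within 1.5 times under the other tools, scalings, filters and limits tried, except without a fold limit, where 6745 and 6714 genes passed. The 4-fold counts of 576 and 1256 were 980 and 2188 without the filter on low counts and 357 and 755 with a mean count of at least 50, and the interaction count of 761 was 395 with that filter. The first 2 settings test 29680 and 13433 genes in place of 16725, and the interaction with that filter tests 13546 in place of 17482. With each library left out in turn the counts ranged from 3190 to 3358, from 3831 to 3947, from 578 to 630, from 1284 to 1366 and from 728 to 772. Scaling by library size alone gave 3564 and 3551 genes, and glmTreat gave 2553 and 3269. DESeq2 gave 3059 and 3761.

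Of 51 list medians, that of the tectum and tegmentum list turned to 1.81 with a mean count of at least 50 (7 genes), and that of the hindbrain list to 1.16 without the filter (20 genes) and 0.73 in 1 fit of all 12 libraries (19 genes). With a mean count of at least 50, those of the hypothalamic and olfactory bulb lists were -2.77 and -0.89. The genes tested differ between these settings. No called gene named in the text changed direction, the fold changes of *Fos*, *Kcnma1* and *Cldn5*, none of them called, changed sign around 0 under some setting, and calls of *Dbh*, *Gad2*, *Gria2*, *Lum* and *Pax5* crossed the limit under some setting.

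With the replicate number as a block, 3209 and 3814 genes were called, 578 and 1256 at 4-fold, and 766 passed the interaction with the number as a block within genotype. The numbers pair nothing that the labels state, and deviations of same-numbered libraries correlated at 0.0125, 0.0223 and 0.0718. Sequencing depth limits genes near the bound of 0.125 to 0.137 CPM, where only large differences can be seen.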
